A study of Mus musculus with 10 samples.

Results

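The genes described here encode the semaphorin, ephrin, Slit and netrin guidance cues and their receptors, measured in cardiomyocytes of the mouse atria and ventricles. They were taken by symbol: class 3 to 7 semaphorins, plexins, neuropilins, Eph receptors, ephrins, Slits, Robos, netrins and the Unc5 receptors. The tables hold 68 such symbols among 25239, of which 35 encode ligands and 33 encode receptors or co-receptors, and all 68 matched a gene of GENCODE release M21 (GRCm38). The samples were cardiomyocytes of wild-type mice, 5 libraries from the atrium and 5 from the ventricle, with no treatment named in the labels. Strain, age, sex and any pooling of hearts are not stated in the labels. The labels do not tie the 5 libraries of a chamber to different mice. Every p-value below therefore rests on the spread among libraries, and that spread may be technical.

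Guidance cues were first studied in growing axons, which they attract or repel, and they act in the heart as well. Semaphorins signal through plexins, with neuropilins as co-receptors for most class 3 members; ephrins are held at the cell surface and bind Eph receptor tyrosine kinases on the neighbouring cell, with signalling in both directions. Slits bind Robo receptors, and netrins bind Dcc, neogenin and the Unc5 receptors. In heart development these families take part in outflow tract septation, in valve and chamber formation, in patterning of the coronary vessels and in the growth of sympathetic nerves.

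Recovered reads per library ranged from 3893406 to 12575523 in atrial and from 1790402 to 12842635 in ventricular libraries. Replicates 1 and 2 of both chambers were the shallower ones, and replicates 3 to 5 carried 23.1% to 29.8% of reads on the ribosomal precursor Rn45s against 0.215% to 0.480%. The first replicate of each chamber covered 21576 (atrial) and 19232 (ventricular) genes, more than the 15950 to 16618 of the other 8 libraries. Chamber markers went with the labels, with 8 of 8 atrial markers (Nppa, Myl7, Sln and others) higher in atrial and 7 of 7 ventricular markers (Myl2, Irx4, Hey2 and others) higher in ventricular libraries. Of 6 pan cardiomyocyte markers 0 were called, with sums of 286567 to 770972 in atrial and 291571 to 632340 in ventricular libraries. Some genes of other cells were called too. Their counts are to be read against the 14.7% of all genes tested that were called, 8.12% higher in atrial and 6.56% higher in ventricular libraries. All 8 epicardial or mesothelial markers were higher in atrial libraries, with sums of 2821 to 6685 normalized reads against 356 to 1864. Among 9 smooth muscle or pericyte markers, 4 (Myh11, Acta2, Abcc9 and Cspg4) were higher in ventricular and 0 in atrial libraries, with sums of 2414 to 7484 in atrial and 11917 to 17978 in ventricular libraries. Fibroblast markers gave 3 ventricular calls and 1 atrial call among 10 (sums of 22745 to 37668 and 11144 to 65205), and endothelial markers 2 atrial calls among 10 (852 to 3841 and 295 to 1675). Endocardial markers gave 2 atrial calls among 4 tested (651 to 1967 and 122 to 543), and lymphatic endothelial markers 1 among 4 (856 to 1618 and 605 to 1490). Neuronal or Schwann markers gave 2 atrial calls among 3 tested (263 to 397 and 78.1 to 99.9), and macrophage or leukocyte markers 1 among 3 (83.7 to 178 and 26.0 to 152). The lymphatic marker Ccl21a and 4 haemoglobin genes were at 0 in all 10 libraries. The part of these cells in the results below was not tested, and in such bulk samples fewer cells of a type and less RNA per cell cannot be told apart.

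Guidance genes differed between the chambers in both directions, and each direction held ligands and receptors. Of the 68 genes, 52 had a mean of at least 10 normalized reads (read counts divided by a size factor for each library) and were tested. Of these 52, 11 were higher in atrial cardiomyocytes, 7 were higher in ventricular cardiomyocytes and 34 passed in neither direction (limma, Benjamini-Hochberg adjusted p under 0.05 over 12422 genes). That is 34.6% of the members tested, where 14.7% of all genes tested were called (8.12% higher in atrial, 6.56% higher in ventricular cells). For 17 of the 52 the ranges of the chambers were separate, against 14.4% of all genes tested. The median log2 difference, atrial minus ventricular, was 0.07 over the members and -0.01 over all genes. The atrial genes were Epha4, Epha7, Epha3, Epha2, Efnb1, Slit3, Unc5b, Plxna4, Sema6d, Sema6c and Sema3f. The ventricular genes were Ntn4, Ntn1, Robo1, Robo2, Efnb3, Nrp1 and Sema3b. With the replicate number as a block, 18 members were called on the atrial side and 8 on the ventricular side, 50% of those tested against 32.3% of all genes (16.3% and 16.0% by direction). All 18 genes called without the block were among these, in the same direction. The labels do not name pairs. With the library sets removed, deviations of same-numbered libraries in replicates 3 to 5 correlated at only -0.0394 to 0.0678. With atrial replicate 1 left out, 11 members were atrial and 11 ventricular (14.9% of all genes were called there, 8.11% toward the atrial and 6.84% toward the ventricular side); the 4 added to the ventricular ones were Plxna2, Plxnc1, Plxnd1 and Robo4. Without replicate 1 of both chambers there were 14 atrial and 11 ventricular members (17.3% of all genes were called there, 9.16% toward the atrial and 8.09% toward the ventricular side), and with replicates 3 to 5 alone 21 and 17 (52.8% of all genes were called there, 26.2% toward the atrial and 26.6% toward the ventricular side).

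**Figure D1:**
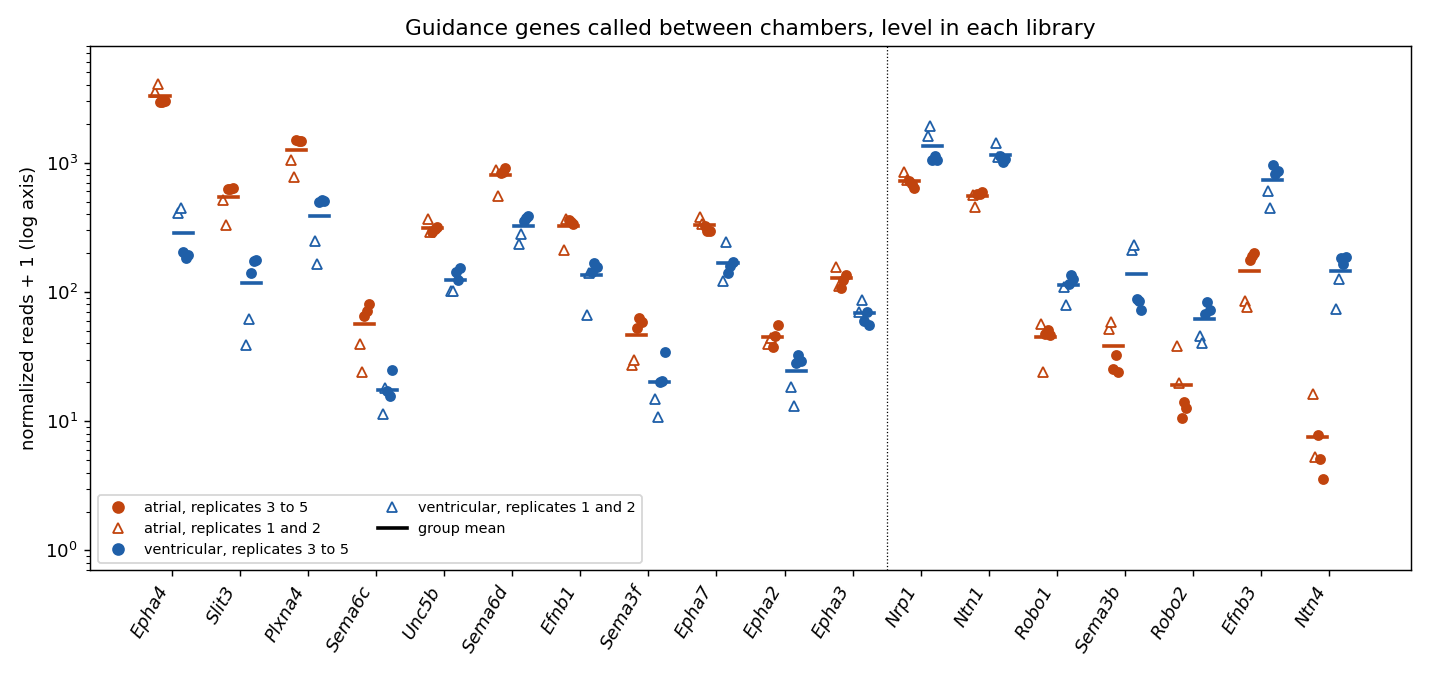
Level of the 18 called guidance genes in each library, as normalized reads plus 1 on a log axis, ordered by log2 difference with genes higher in atrial cells left of the dotted line. Red marks are atrial and blue marks ventricular libraries, open triangles are replicates 1 and 2, filled circles replicates 3 to 5, and bars are group means; Epha4 stands highest among the atrial values and Ntn4 lowest, and the groups meet in Sema3f and Sema6c.

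Among Eph receptors, 4 of the 5 EphA genes tested were higher in atrial cardiomyocytes and none of the 5 EphB genes was called by limma without the block. Of all genes tested, 8.12% were higher in atrial cells and 14.7% were called in either direction, so 0 calls among 5 genes do not set EphB apart. EphA receptors bind mainly the ephrins anchored by a lipid tail, and EphB receptors the ephrins that span the membrane; Epha4 is the member that binds both classes. Of 9 EphA genes 5 were tested, 4 were higher in atrial cells, and the remaining one, Epha1, differed by 0.18 ± 0.28 on the log2 scale. Epha4 (ENSMUSG00000026235, chromosome 1, 77367185 to 77515088) had 3495, 4053, 2958, 2936 and 2998 normalized reads in atrial replicates 1 to 5 and 405, 446, 203, 182 and 193 in ventricular replicates 1 to 5. Every atrial library was thus above every ventricular one, and in both chambers replicates 1 and 2 were the highest. The atrial mean was 3288 ± 486 and the ventricular mean 286 ± 129 (SD, n = 5). Epha4 was thus 11.5-fold higher in atrial cells, by 3.62 ± 0.27 on the log2 scale (limma, adjusted p = 9.27e-06).

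The other EphA genes called differed by about 1 on the log2 scale. Epha7 (chromosome 4, 28813131 to 28967499) had 378, 333, 323, 297 and 297 normalized reads in atrial and 121, 241, 138, 156 and 169 in ventricular libraries, means of 326 ± 33.3 and 165 ± 46.3 (SD, n = 5) and a log2 difference of 1.01 ± 0.17 (limma, adjusted p = 0.00278). Its highest ventricular value, in replicate 2, stayed below the lowest atrial value. For Epha3 (chromosome 16, 63543534 to 63864175), a receptor known from endocardial cushion and atrial septum development, the values were 156, 111, 107, 123 and 135 against 69.2, 85.3, 58.9, 69.5 and 54.4. The groups were again separate, with means of 126 ± 19.8 and 67.4 ± 11.9 (SD, n = 5) and a log2 difference of 0.90 ± 0.16 (limma, adjusted p = 0.00354). Epha2 (chromosome 4, 141301240 to 141329384), at 38.6, 43.2, 36.4, 44.8 and 54.1 against 17.3, 12.2, 27.3, 31.4 and 28.4 normalized reads, was called with means of 43.4 ± 6.86 and 23.3 ± 8.17 (SD, n = 5) and a log2 difference of 0.93 ± 0.27 (limma, adjusted p = 0.0399), but not when any of 8 of the 10 libraries was left out (adjusted p of 0.0344 to 0.105 over the 10), nor without the filter on low values (0.0697). The call remained only without ventricular replicate 4 or 5. Epha2 had 282 recovered reads in all atrial and 147 in all ventricular libraries.

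The 250 bases upstream of the RefSeq start are shown for the EphA genes whose start is the same base in GENCODE, because these members were called in the same direction, and for Robo2 as a ventricular gene with such a start. They lie at chr1:77515089-77515338 (minus strand, Epha4), chr4:28812881-28813130 (plus strand, Epha7), chr16:63864176-63864425 (minus strand, Epha3) and chr16:74411826-74412075 (minus strand, Robo2), in the GRCm38.p6 build of RefSeq. Capitals mark matches, on either strand, to the T-box motif AGGTGTGA or its core GGTGTG, the nuclear receptor motif AGGTCA, the E-box CACGTG, the GATA motif AGATAA and the TEAD motif CATTCC.
Epha4: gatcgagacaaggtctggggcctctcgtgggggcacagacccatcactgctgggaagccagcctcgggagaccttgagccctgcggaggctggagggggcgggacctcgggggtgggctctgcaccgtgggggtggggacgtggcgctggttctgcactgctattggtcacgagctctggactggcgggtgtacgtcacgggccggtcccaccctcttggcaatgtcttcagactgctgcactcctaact
Epha7: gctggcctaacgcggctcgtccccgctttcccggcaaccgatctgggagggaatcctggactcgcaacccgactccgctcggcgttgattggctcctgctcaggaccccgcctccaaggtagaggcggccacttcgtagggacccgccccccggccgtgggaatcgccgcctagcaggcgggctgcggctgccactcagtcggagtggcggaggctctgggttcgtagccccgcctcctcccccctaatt
Epha3: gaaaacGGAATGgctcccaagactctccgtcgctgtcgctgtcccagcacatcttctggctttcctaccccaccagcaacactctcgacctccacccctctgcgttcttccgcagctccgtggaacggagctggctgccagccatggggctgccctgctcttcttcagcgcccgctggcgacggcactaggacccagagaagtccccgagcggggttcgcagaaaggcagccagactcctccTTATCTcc
Robo2: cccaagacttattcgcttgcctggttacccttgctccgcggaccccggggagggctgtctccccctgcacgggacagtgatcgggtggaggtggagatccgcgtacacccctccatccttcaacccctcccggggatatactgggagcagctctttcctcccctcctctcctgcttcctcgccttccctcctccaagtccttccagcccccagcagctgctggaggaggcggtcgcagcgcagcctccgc
Of these windows, that of Epha3 held a CATTCC match (as GGAATG) and an AGATAA match (as TTATCT), and the other 3 held none of the 6 motifs. RefSeq windows were at hand for 9 of the 11 atrial and 4 of the 7 ventricular genes called. GGTGTG stood in at least 1 window of 2 of the 9 (Efnb1 and Sema6c) and 1 of the 4 (Robo2, at another of its starts), where 18.3% of 27025 genes hold it. AGGTCA stood in 1 of the 9 (Epha2) and 2 of the 4 (Nrp1 and Ntn4), against 15.8% of genes. CATTCC stood in 2 of the 9 (Epha2 and Epha3) and 0 of the 4 (14.4% of genes), AGATAA in 1 and 1 (11.4%), CACGTG in 1 and 1 (6.86%), and AGGTGTGA in 0 and 0 (1.30%). AGGTGTGA contains GGTGTG, so these 2 are not separate searches.

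Of the EphB receptors, Ephb4 and Ephb6 were called under some other settings. Ephb4, a receptor of venous endothelium that pairs with ephrin-B2, had 397, 278, 248, 265 and 282 normalized reads in atrial and 228, 229, 217, 203 and 213 in ventricular libraries. The lowest atrial value lay above the highest ventricular one, with means of 294 ± 59.2 and 218 ± 11 (SD, n = 5) and a log2 difference of 0.41 ± 0.13 (limma, adjusted p = 0.0664; 0.0141 with the block and 0.0220 by DESeq2). Ephb6, whose kinase domain is inactive, had 15.2, 36.0, 47.7, 40.1 and 47.6 against 10.4, 14.6, 19.2, 24.7 and 19.2 (log2 difference 0.99 ± 0.34, limma, adjusted p = 0.0847; 0.00733 with the block, 0.0456 by edgeR and 0.0202 by DESeq2). Ephb3, Ephb1 and Ephb2 differed by -0.33, 0.10 and -0.52, with limma adjusted p of 0.440, 0.956 and 0.701.

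The ephrin-B ligands went in opposite directions. Efnb1 (ephrin-B1, chromosome X, 99136130 to 99148991), a protein of the lateral membrane of adult cardiomyocytes, had 208, 364, 359, 346 and 336 normalized reads in atrial and 65.7, 139, 143, 168 and 155 in ventricular libraries. Replicate 1 was the low one in each chamber, and all atrial values exceeded all ventricular ones. It had means of 323 ± 64.9 and 134 ± 39.8 (SD, n = 5) and a log2 difference of 1.30 ± 0.26 (2.41-fold, limma, adjusted p = 0.00629). Efnb3 (ephrin-B3, ENSMUSG00000003934, chromosome 11, 69554092 to 69560205), best known as a midline cue of the nervous system, had 84.1, 74.8, 176, 188 and 199 in atrial and 599, 448, 956, 817 and 857 in ventricular libraries, again without overlap. With means of 144 ± 59.8 and 736 ± 207 (SD, n = 5), it was 5.10-fold higher in ventricular cells, a log2 difference of -2.41 ± 0.32 (limma, adjusted p = 0.000589). Efnb2, the ligand that marks arterial endothelium, had means of 99.3 ± 15.6 and 106 ± 36.3 (log2 difference -0.0089 ± 0.29, limma, adjusted p = 0.991).

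As a share of the 3 ephrin-B genes, counted as normalized reads per kilobase of merged exons within each library, Efnb1 made up 55.3% to 74.9% in atrial and 8.51% to 21.5% in ventricular libraries. Efnb3 made up 16.7% to 35.5% and 75.1% to 84.0%, so the leading ephrin-B transcript was Efnb1 in all 5 atrial and Efnb3 in all 5 ventricular libraries. Such shares do not depend on the scaling between libraries, but they do depend on the merged exon lengths, which join all annotated transcripts of a gene. None of the 3 ephrin-A genes tested was called (0 of 3, against 14.7% of all genes). Efna5, the ephrin-A gene with the most reads, had 103, 63.3, 319, 324 and 355 in atrial and 159, 70.7, 303, 292 and 303 in ventricular libraries. Replicates 1 and 2 were low in both chambers, with means of 233 ± 138 and 226 ± 106 (SD, n = 5), and the log2 difference of -0.06 ± 0.57 (limma, adjusted p = 0.969) changed sign under other settings. Efna1 and Efna2 differed by 0.23 ± 0.19 and 1.41 ± 0.87 (limma, adjusted p = 0.538 and 0.364).

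**Figure D2:**
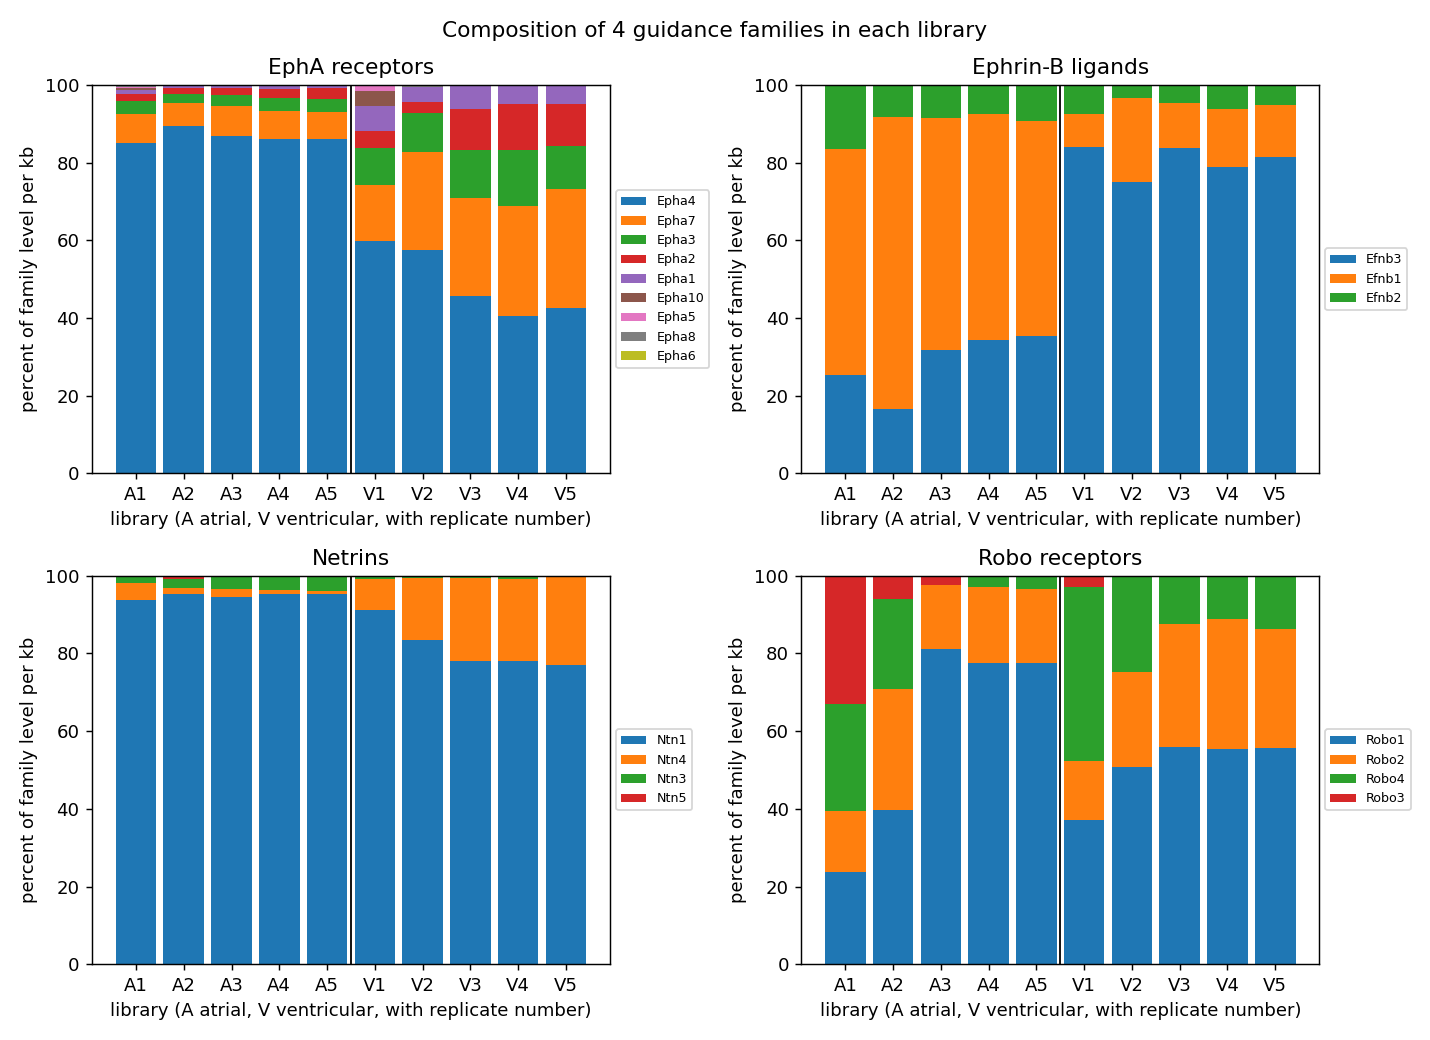
Share of each member in 4 guidance families, as percent of the family's summed normalized reads per kilobase of merged exons, in atrial (A1 to A5) and ventricular (V1 to V5) libraries. Epha4 takes 85% to 89.4% of the EphA sum in atrial and 40.5% to 59.8% in ventricular libraries, ephrin-B passes from Efnb1 to Efnb3, and Ntn4 takes 0.695% to 4.28% of the netrin sum in atrial and 7.90% to 22.6% in ventricular libraries.

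Semaphorins differed singly: of 20 genes 15 were tested, with 3 higher in atrial and 1 in ventricular cells, where 8.12% and 6.56% of all genes were. Class 3 semaphorins are secreted and class 4 to 7 semaphorins are mostly bound to the membrane. Sema6d (ENSMUSG00000027200, chromosome 2, 124089969 to 124667770), a membrane-bound ligand of plexin-A receptors that acts in heart tube and chamber formation, had 883, 548, 829.9, 847 and 904 normalized reads in atrial and 235, 278, 352, 369 and 387 in ventricular libraries. Atrial replicate 2 was the lowest of its group and still above every ventricular value. It had means of 802 ± 145 and 324 ± 64.8 (SD, n = 5) and a log2 difference of 1.31 ± 0.18 (2.47-fold, limma, adjusted p = 0.000737). Sema6c (chromosome 3, 95160457 to 95174024), at 38.6, 23.0, 63.6, 70.8 and 79.2 against 10.4, 17.1, 16.1, 14.7 and 24.1, had means of 55.0 ± 23.4 and 16.5 ± 4.97 (SD, n = 5) and differed by 1.60 ± 0.35 (limma, adjusted p = 0.0107). Its atrial replicate 2 fell just below ventricular replicate 5, so the groups overlapped. Sema6c had 399 recovered reads in all atrial and 97 in all ventricular libraries. Its 10.4 in ventricular replicate 1 stood for 3 reads, a level that 0 reads also allows. Sema3f (chromosome 9, 107681500 to 107710475), a secreted ligand of neuropilin-2, had 26.2, 28.8, 51.7, 61.3 and 57.9 against 13.8, 9.75, 19.2, 19.4 and 33.4, means of 45.2 ± 16.5 and 19.1 ± 8.92 (SD, n = 5) (log2 difference 1.22 ± 0.36, limma, adjusted p = 0.0424). For Sema3f the groups overlapped, and the call was lost when any of 7 of the 10 libraries was left out (adjusted p of 0.0221 to 0.109 over the 10) and without the filter on low values (0.0608). The call remained without atrial replicate 1 or 2 or ventricular replicate 5. Sema3f had 324 recovered reads in all atrial and 122 in all ventricular libraries.

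Sema3b (chromosome 9, 107597674 to 107609229) was the semaphorin higher in ventricular cells. It had 51.0, 57.6, 24.4, 31.3 and 23.2 normalized reads in atrial and 211, 229, 87.4, 83.5 and 71.7 in ventricular libraries, with replicates 1 and 2 the highest in each chamber and no overlap. It had means of 37.5 ± 15.8 and 137 ± 76.7 (SD, n = 5) and a log2 difference of -1.76 ± 0.40 (3.64-fold higher in ventricular cells, limma, adjusted p = 0.0123). Sema3a, a repellent of sympathetic axons, had 206, 90.7, 107, 114 and 118 against 118, 68.2, 51.4, 57.5 and 64.9 (log2 difference 0.82 ± 0.26, limma, adjusted p = 0.0655; 0.00145 with the block and 0.0151 by DESeq2).

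The class 3 genes with the most reads, Sema3d and Sema3c, were not called. Sema3d, a cue for coronary and venous vessels, had 225, 546, 937, 907 and 930.0 and 221, 251, 619.7, 821 and 808 normalized reads, means of 709 ± 317 and 544 ± 292 (SD, n = 5), all lower in replicates 1 and 2 than in replicates 3 to 5 (log2 difference 0.42 ± 0.50, limma, adjusted p = 0.708). Sema3c, needed for outflow tract septation, had 241, 559.9, 556, 529 and 526 and 125, 249, 733, 962 and 849 (log2 difference 0.03 ± 0.54, limma, adjusted p = 0.982). In Sema3c the atrial library exceeded the ventricular one in replicates 1 and 2 and fell below it in replicates 3 to 5, with differences of 1.06 and -0.65 in these sets and an interaction with a limma adjusted p of 0.0738. Sema4d, the class 4 gene with the most reads, had 74.5, 34.5, 109, 144 and 136 and 65.7, 46.3, 188, 134 and 145, means of 99.6 ± 45.3 and 116 ± 58.7 (SD, n = 5) (log2 difference -0.20 ± 0.47, limma, adjusted p = 0.871). Of the 3 class 4 genes tested 0 were called, where 14.7% of all genes were. Sema5a, at 411 ± 106 and 276 ± 139, was not called over all 10 libraries without the block or a library set term (limma, adjusted p = 0.292; 0.0441 with the block and 0.000358 in replicates 3 to 5). Sema3e, Sema3g, Sema4b, Sema4c, Sema6a and Sema7a differed by 0.53, -0.26, -0.04, 0.05, -0.35 and -0.32. Their limma adjusted p was 0.454, 0.868, 0.955, 0.930, 0.848 and 0.836.

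**Figure D3:**
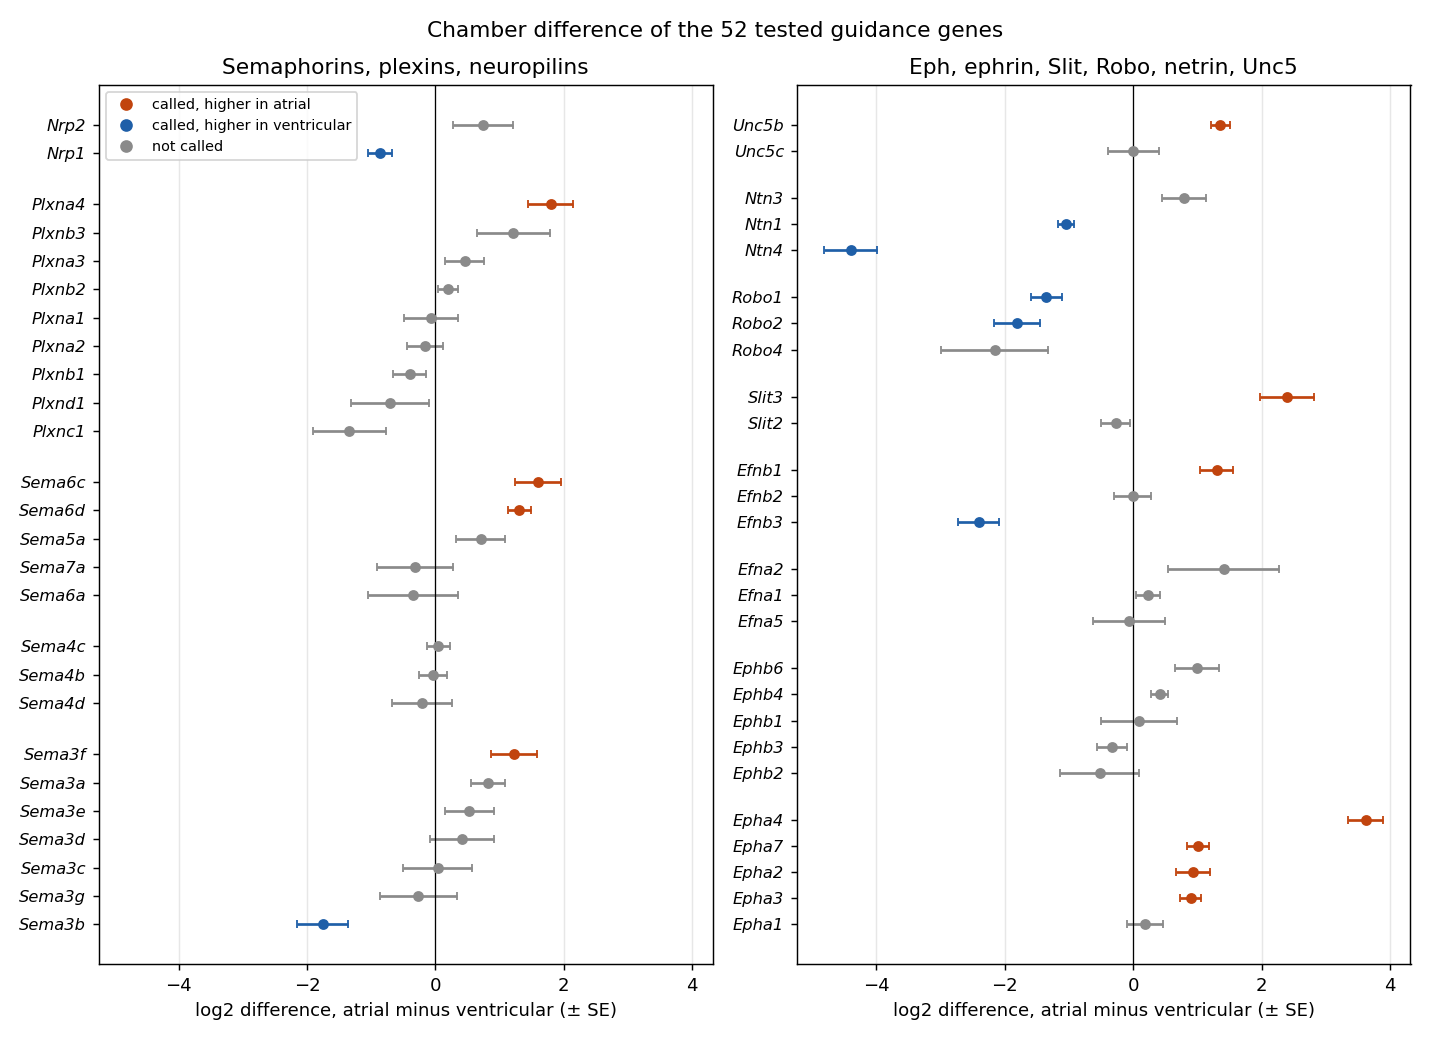
Log2 difference, atrial minus ventricular, with its SE, for the 52 guidance genes tested, grouped by family. Red points were called higher in atrial, blue points higher in ventricular cells and grey points not called; the 5 EphA genes tested lie right of 0 and the 3 Robo genes left of it.

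Of the semaphorin receptors, Plxna4 was higher in atrial cells and Nrp1 in ventricular cells. Plxna4 (plexin-A4, ENSMUSG00000029765, chromosome 6, 32144268 to 32588192), which carries class 3 and class 6 semaphorin signals, had 1048, 772, 1499, 1483 and 1464 normalized reads in atrial and 246, 163, 492, 515 and 508 in ventricular libraries. Replicates 1 and 2 were the lower ones in each chamber, and the groups did not overlap. With means of 1253 ± 328 and 385 ± 167 (SD, n = 5), it was 3.26-fold higher in atrial cells, a log2 difference of 1.79 ± 0.34 (limma, adjusted p = 0.00490). Nrp1 (neuropilin-1, chromosome 8, 128358604 to 128503363), a co-receptor for class 3 semaphorins and for VEGF-A, had 845, 731, 725, 679.8 and 636 against 1619, 1926, 1042, 1133 and 1055. With means of 723 ± 78.3 and 1355 ± 398 (SD, n = 5), it was 1.87-fold higher in ventricular cells without overlap, a log2 difference of -0.86 ± 0.18 (limma, adjusted p = 0.00877). The call was lost when libraries were scaled to equal totals (-0.79, limma, adjusted p = 0.0804). Nrp2 had the higher mean in atrial cells, at 132 ± 35.6 against 94.0 ± 67.0 in ventricular cells. Its highest value was nevertheless in ventricular replicate 1, at 204 normalized reads against 72.0 to 167 in atrial libraries. It was not called over all 10 libraries without the block (log2 difference 0.74 ± 0.47, limma, adjusted p = 0.378, with 0.0450 under the block and 1.30e-06 in replicates 3 to 5).

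The other 8 plexins were not called, where 14.7% of all genes tested were. Plxnb2 had the most reads among plexins, 1116, 832, 1267, 1236 and 1338 in atrial and 969, 787, 1138, 1044 and 1074 in ventricular libraries, with overlapping groups, means of 1158 ± 199 and 1002 ± 135 (SD, n = 5) and a log2 difference of 0.20 ± 0.15 (limma, adjusted p = 0.489; 0.0413 with the block). Plxnd1, a receptor for class 3 semaphorins in endothelium, had 505, 95.0, 51.1, 44.8 and 56.0 and 246, 80.4, 141, 162 and 163 (log2 difference -0.70 ± 0.60, limma, adjusted p = 0.553). Plxnc1, the receptor of Sema7a, had 109, 18.7, 16.5, 18.3 and 18.0 and 27.7, 43.9, 87.4, 118 and 106 (log2 difference -1.34 ± 0.57, limma, adjusted p = 0.162). In both genes atrial replicate 1 was far above the other 4 atrial libraries. Summed endothelial markers were also highest in that library, at 3841 normalized reads against 852 to 1027 in the other atrial libraries. So were the sums of pan cardiomyocyte, endocardial, smooth muscle or pericyte, macrophage or leukocyte and red blood cell markers. Lymphatic endothelial, fibroblast, epicardial or mesothelial, neuronal or Schwann and chamber marker sums were not. In ventricular replicate 1 the endothelial sum was the highest of its group (1675), while Plxnc1 was the lowest (27.7). The part of any of these cells in these values was not tested. Without atrial replicate 1 Plxnd1 and Plxnc1 were both called higher in ventricular cells. Without replicate 1 of both chambers their differences were -1.14 and -2.16 (limma, adjusted p = 0.0323 and 0.00165). Plxnb3 was not called over all 10 libraries without the block (1.22, limma, adjusted p = 0.204; 0.0387 with the block and 0.0213 without replicate 1 of both chambers). Plxna1, Plxna2, Plxna3 and Plxnb1 differed by -0.07, -0.15, 0.45 and -0.40, with limma adjusted p of 0.954, 0.828, 0.410 and 0.381.

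In the Slit and Robo system the ligand Slit3 was higher in atrial cells and the receptors Robo1 and Robo2 in ventricular cells. Slit3 (ENSMUSG00000056427, chromosome 11, 35121224 to 35708507), a secreted ligand with a part in heart morphogenesis, had 513, 331, 619.7, 621 and 636 normalized reads in atrial and 38.1, 60.9, 139, 172 and 175 in ventricular libraries. All 5 atrial values exceeded the highest ventricular value, and replicates 1 and 2 were the lower ones in each chamber. With means of 544 ± 129 and 117 ± 63.6 (SD, n = 5), it was 4.66-fold higher in atrial cells, a log2 difference of 2.40 ± 0.42 (limma, adjusted p = 0.00279). Slit2, the other Slit tested, had means of 158 ± 29.6 and 197 ± 62.1 (log2 difference -0.27 ± 0.23, limma, adjusted p = 0.545).

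Robo1 (chromosome 16, 72308306 to 73046095) had 55.2, 23.0, 46.6, 50.1 and 45.7 normalized reads in atrial and 107, 78.0, 114, 133 and 125 in ventricular libraries. The groups were separate, with means of 44.1 ± 12.4 and 111 ± 21.1 (SD, n = 5) and a log2 difference of -1.35 ± 0.25 (2.53-fold higher in ventricular cells, limma, adjusted p = 0.00366). Robo2 (chromosome 16, 73891839 to 74411825) had 37.2, 18.7, 9.66, 13.0 and 11.6 against 45.0, 39.0, 66.3, 82.2 and 71.0, with atrial replicate 1 just below the lowest ventricular library. It had means of 18.0 ± 11.3 and 60.7 ± 18.2 (SD, n = 5) and a log2 difference of -1.81 ± 0.36 (3.37-fold, limma, adjusted p = 0.00621), from 97 recovered reads in all atrial and 374 in all ventricular libraries. Robo4, the endothelial Robo, had 20.7, 4.32, 0, 0.590 and 0.644 and 41.5, 12.2, 8.06, 8.69 and 9.88, the highest of each group being replicate 1. Summed endothelial markers were also highest there (3841 and 1675 normalized reads, against 852 to 1027 and 295 to 762 elsewhere). So were the sums of pan cardiomyocyte, macrophage or leukocyte and red blood cell markers. Between the chambers, Robo4 had the higher mean in ventricular libraries (16.1 against 5.25). Endothelial markers gave 2 atrial and 0 ventricular calls among 10. The part of these cells in Robo4 was not tested. Atrial replicate 3 had no Robo4 read, which allows up to 1.70 normalized reads. Robo4 passed with the block (log2 difference -2.16 ± 0.84, limma, adjusted p = 0.123; 0.00733 with the block). All 3 Robo estimates were negative.

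Of 3 netrins tested, 2 were higher in ventricular cells, where 6.56% of all genes were. Of 2 Unc5 receptors tested, 1 was higher in atrial cells, where 8.12% of all genes were. Ntn4 (netrin-4, ENSMUSG00000020019, chromosome 10, 93640681 to 93747207), a netrin of basement membranes that binds laminin, had 15.2, 4.32, 6.82, 4.13 and 2.57 normalized reads in atrial and 72.7, 124, 182, 163 and 185 in ventricular libraries. Atrial libraries held 37 recovered reads of it in all and ventricular libraries 909, and replicate 1 was the nearest to the other group on both sides. With means of 6.6 ± 5.03 and 145 ± 47.3 (SD, n = 5), it was 22.0-fold higher in ventricular cells, a log2 difference of -4.40 ± 0.41 (limma, adjusted p = 5.25e-05), the largest toward ventricular cells among the 52 genes tested. Ntn1 (netrin-1, chromosome 11, 68209364 to 68400823), a secreted cue that attracts axons through Dcc and repels them through Unc5, had 557, 452, 569.8, 575 and 592 against 1408, 1097, 1119, 1006 and 1059. With means of 549 ± 55.8 and 1138 ± 157 (SD, n = 5) and no overlap, it was 2.07-fold higher in ventricular cells, a log2 difference of -1.05 ± 0.12 (limma, adjusted p = 0.000238). Ntn3, which overlaps the more abundant gene Tbc1d24, was at 14.3 ± 5.02 and 7.63 ± 2.22 and was not called (limma, adjusted p = 0.165).

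Unc5b (ENSMUSG00000020099, chromosome 10, 60762593 to 60831581), a netrin receptor known from vascular endothelium, had 363, 288, 289.7, 304 and 319 normalized reads in atrial and 100.3, 99.9, 141, 122 and 151 in ventricular libraries. The lowest atrial value was well above the highest ventricular one. The means were 313 ± 30.7 and 123 ± 23.3 (SD, n = 5), a log2 difference of 1.36 ± 0.14 (2.55-fold, limma, adjusted p = 0.000130). Unc5c was at 19.4 ± 11.8 and 18.7 ± 8.06 (log2 difference 0.0031, limma, adjusted p = 0.997), and Unc5a and Unc5d were below the filter. Of the other netrin receptors, Neo1 (neogenin) was higher in atrial cells, at 1426 ± 305 against 977 ± 77.3 (log2 difference 0.52 ± 0.15, limma, adjusted p = 0.0449), and Dcc had 11, 1.44, 0.568, 0.590 and 1.93 in atrial and 69.2, 19.5, 8.06, 6.68 and 7.41 in ventricular libraries (log2 difference -2.39 ± 0.76, limma, adjusted p = 0.0616).

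Levels were set side by side between genes after division by merged exon length. That length joins the exons of all annotated transcripts of a gene. The transcripts present in these cells were not determined, so the order of genes is approximate. In normalized reads per kilobase, the highest receptors in atrial libraries were Epha4 at 408 ± 60.4, Plxnb2 at 150.0 ± 25.8, Plxna4 at 88.8 ± 23.3, Nrp1 at 73.9 ± 8.0 and Ephb4 at 63.4 ± 12.8 (mean ± SD, n = 5). Epha4 stood above Plxnb2 beyond their spread, and neighbours from Plxna4 down to Ephb4 lay within it. In ventricular libraries Nrp1 at 138 ± 40.7 and Plxnb2 at 129.8 ± 17.5 were highest and did not differ beyond their spread. They were followed by Ephb4 at 47.0 ± 2.37, Plxna1 at 39.1 ± 17.7 and Epha4 at 35.5 ± 16.0, which lay within each other's spread. Among ligands in atrial libraries, Efnb1 at 93.4 ± 18.8, Slit3 at 89.7 ± 21.2, Ntn1 at 87.5 ± 8.90 and Sema3d at 82.5 ± 36.9 per kilobase lay within their spread of each other. In ventricular libraries Efnb3 at 231 ± 65.0 and Ntn1 at 181 ± 25.0 led, within the spread of Efnb3, ahead of Sema3c at 81.7 ± 52.4 and Sema3d at 63.3 ± 34.0.

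The 16 genes below the filter had means of 0.260 to 8.92 normalized reads over the 10 libraries. They were Sema4a, Sema4f, Sema4g, Sema5b, Sema6b, Epha5, Epha6, Epha8, Epha10, Efna3, Efna4, Slit1, Robo3, Ntn5, Unc5a and Unc5d. In 12 of the 16 the highest single value was in replicate 1 of a chamber, the libraries with reads over the most genes. Epha5, for example, had 30.3, 2.88, 0, 0.590 and 0 in atrial and 20.8, 0, 0, 0.668 and 0 in ventricular libraries. Sema5b was different: it had 8.28, 1.44, 0, 0.590 and 0 in atrial and 13.8, 9.75, 12.4, 16.7 and 17.9 in ventricular libraries, the latter all higher. In a fit with no filter it was the 1 member of the 16 called (log2 difference -2.86, limma, adjusted p = 0.00954), where 6.94% of 23008 genes were called, 3.95% toward the atrial and 2.99% toward the ventricular side. It was singled out after its values had been seen.

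Genes that work with these cues were examined from 6 lists of co-receptors and effectors, of which 111 symbols were in the tables and 91 were tested. Of the 91, 12 were called on the atrial side and 4 on the ventricular side, where 14.7% of all genes were called, with a median log2 difference of 0.10 (27 and 12 with the block, where 32.3% of all genes were called). The list of partners of Unc5 and Robo receptors held Flrt1, Flrt2, Flrt3, the glypicans Gpc1 and Gpc3, and Adgrl1, Adgrl2 and Adgrl3. It had 4 of 8 tested genes higher in atrial cells and 0 in ventricular cells, with a median of 0.69. The 4 called were Flrt1 (1.82 ± 0.49), Flrt3 (1.73 ± 0.52), Gpc1 (0.74 ± 0.15) and Gpc3 (0.74 ± 0.18, all log2 differences, limma adjusted p of 0.0289, 0.0480, 0.00777 and 0.0190). Of 9 semaphorin co-receptors 1 was called, the VEGF receptor Kdr (1.91 ± 0.51, limma, adjusted p = 0.0293), which is also an endothelial marker.

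The effector lists are to be read against the 14.7% of all genes called, 8.12% and 6.56% by direction. Of 29 Eph and ephrin effectors, 3 were called on the atrial side and 2 on the ventricular side (median 0.02). Grip1, a scaffold that binds ephrin-B tails, had 121, 79.2, 96.0, 103 and 91.4 normalized reads in atrial and 27.7, 4.87, 12.4, 14 and 11.1 in ventricular libraries, without overlap (log2 difference 2.89 ± 0.35, limma, adjusted p = 0.000335). Inppl1, the phosphatase SHIP2, was higher in atrial cells (1.0 ± 0.18, adjusted p = 0.00350 by limma) and Grb10, an adaptor of receptor tyrosine kinases, in ventricular cells (-1.11 ± 0.17, adjusted p = 0.00117 by limma). Of 21 plexin and semaphorin effectors, 2 were atrial and 2 ventricular (median 0.10), among them the small GTPase Rnd1 (1.66 ± 0.34, limma, adjusted p = 0.00728). Of 19 Slit and Robo effectors, 1 was atrial, the kinase Pak1 (1.59 ± 0.40, limma, adjusted p = 0.0223), and 0 were ventricular (median 0.03). Of 5 tested genes in the list with Neo1 and Dcc, Neo1 alone was called (median 0.23).

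The chamber differences were then compared between the 2 library sets, replicates 1 and 2 and replicates 3 to 5 (the grouping comes from depth and Rn45s share, and no label names it). All 18 called genes had the same sign in both sets, as had 18 of the 34 that were not called. The 18 were chosen on these same libraries. All 18 were called within replicates 3 to 5 alone, where 38 of the 52 members and 52.8% of all genes were called. Within replicates 1 and 2 alone, 10 were, and Efnb1, Epha2, Epha3, Epha7, Robo1, Robo2, Sema3f and Sema6c were not (5.14% of all genes were called there, 3.09% toward the atrial and 2.04% toward the ventricular side). For 3 of the 52 members the chamber difference itself was unequal between the sets by limma's interaction test (5.21% of all genes were). Epha4 differed by 3.14 in replicates 1 and 2 and 3.94 in replicates 3 to 5 (adjusted p = 0.00888), and Robo2 by -0.64 and -2.58 (adjusted p = 0.0266). Plxnb1 differed by -0.97 and -0.03 (adjusted p = 0.0162), with 135, 166, 328, 314 and 322 normalized reads in atrial and 269.9, 319, 362, 310.1 and 311 in ventricular libraries.

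**Figure D4:**
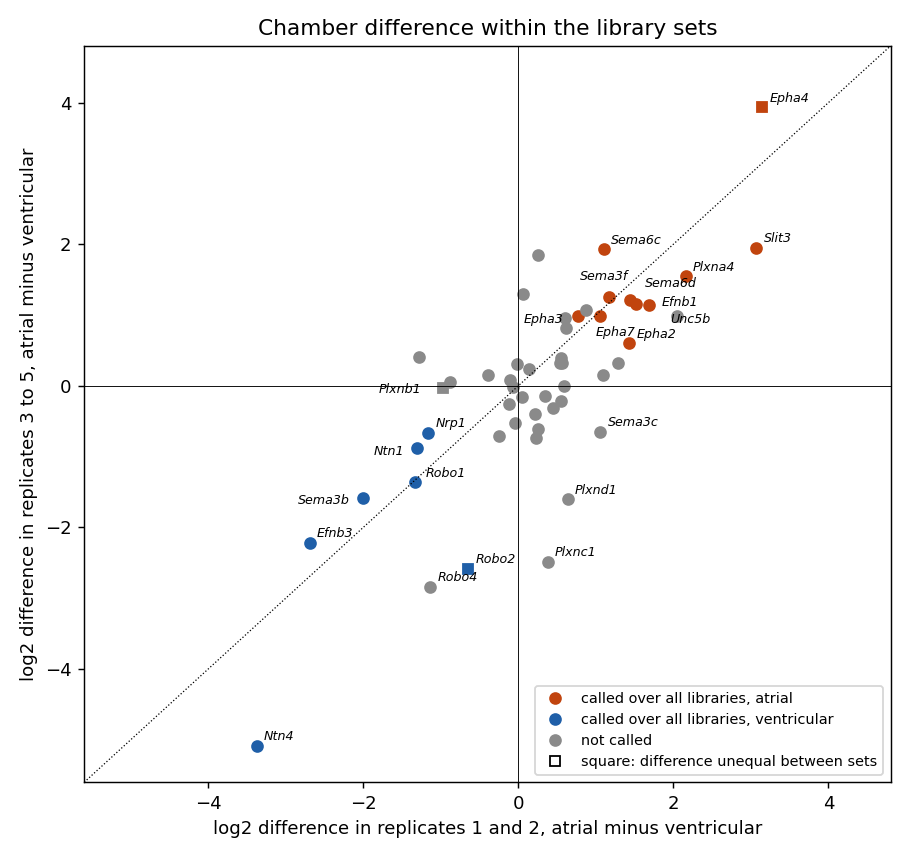
Log2 difference, atrial minus ventricular, of the 52 tested guidance genes within replicates 1 and 2 (horizontal) and within replicates 3 to 5 (vertical). The dotted line marks equal differences, squares mark the 3 genes with an unequal difference by the interaction test, and colours mark calls over all libraries; Plxnc1 and Plxnd1 lie below 0 in replicates 3 to 5 and above 0 in replicates 1 and 2.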

How the data were processed

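RNA of atrial and ventricular cardiomyocytes was sequenced from total RNA with the ScriptSeq v2 kit, per the labels' protocols. Trimmomatic, HISAT2 and featureCounts on GRCm38 (mm10) are named in the submitters' processing notes. No version, annotation or strand setting is given in the sources used here. Per the file headers, the authors divided each library's read counts by its DESeq2 size factor, and this scaled signal is what they deposited. Dividing by what 1 read was worth in each library gave whole reads within 0.01 for 100% of values, and 0 reads allows up to 3 (1.70 to 10.4 normalized reads, counting error only).

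Genes averaging 10 or more normalized reads were tested with limma 3.58.1 (R 4.3.3, trend and robust variance, two-sided) on log2(value + 1), with Benjamini-Hochberg adjustment at 0.05. That scale understates the change of low genes. Folds are ratios of group means. Merged exon lengths and positions came from GENCODE M21; 4 members (Unc5a, Ntn3, Ntn5 and Epha1), none of them called, overlap a gene with more reads. The main fit did not pair libraries. The block treats same-numbered libraries as pairs, which the labels do not name. Deviations of same-numbered libraries from their group means correlated at 0.582, 0.637, 0.623, 0.556 and 0.631. With the library sets removed the correlations were 0.405, 0.405, -0.0394, 0.00205 and 0.0678, so replicates 3 to 5 gave no sign of pairing by number. The 2 values of 0.405 are equal by construction, because a set of 2 libraries has mirrored deviations from its mean. Replicates differed by more than sampling noise, but unequally. Chi-square per gene between libraries of a chamber, about 1 under sampling noise alone, was 2.21 to 11.8 among replicates 3 to 5. Between replicates 1 and 2 it was 25.15 (atrial) and 8.06 (ventricular), and across the library sets 140 to 238. The p-values from replicates 3 to 5 alone rest on this smaller spread. Alternatives were the block, a library set term, each set alone, pseudocounts of 0.5 and 5, filters, scalings, edgeR 4.0.16 and DESeq2 1.42.0 on the recovered reads, and leaving out each library.

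Full values are given for each called member and for the member with the most reads in each family; partner genes are named where called with a difference of at least 1, with Neo1, Dcc, Gpc1 and Gpc3 added after their values had been seen, as were the members described beyond the rule. The members and all lists were chosen with earlier results of these data known.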

Additional observations from a re-analysis of the deposited data

Results flagged for a closer look

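Single libraries stood apart from the other 4 of their chamber in 6 of the 46 groups examined (23 members in 2 chambers), by a gap of more than 0.71 of the group's range; chance gives about 1 such group in 20. Efnb1 was low in atrial replicate 1, at 208 normalized reads against 336 to 364 in the others. It was also low in ventricular replicate 1, at 65.7 against 139 to 168. Ephb4 was high in atrial replicate 1, at 397 against 248 to 282. Ntn1 was low in atrial replicate 2, at 452 against 557 to 592, and high in ventricular replicate 1, at 1408 against 1006 to 1119. Sema6d was low in atrial replicate 2, at 548 against 829.9 to 904. These 6 values came from 3 libraries, atrial replicates 1 and 2 and ventricular replicate 1.

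The size of the chamber difference was unequal between the library sets for 3 of the 52 members, where 5.21% of all genes were, so the count says nothing particular about the members. The log2 difference in replicates 3 to 5 minus that in replicates 1 and 2 was 0.79 for Epha4, -1.94 for Robo2 and 0.94 for Plxnb1 (limma, adjusted p = 0.00888, 0.0266 and 0.0162).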

How the results depend on the processing

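Of 410 values of the 18 called genes under other settings, 383 kept the direction and the call and 27 kept the direction only; 16 of the 18 stayed called whichever library was left out, the exceptions being Epha2 and Sema3f. Members called higher in atrial cells numbered 11 in the test as reported, 18 with the replicate block, 21 in replicates 3 to 5 and 5 in replicates 1 and 2. They numbered 9 to 11 with 1 library left out and 14 without replicate 1 of both chambers, a setting chosen after seeing the data. Members higher in ventricular cells numbered 7, and 17 in replicates 3 to 5; 7 to 11 with 1 library left out, the 11 without atrial replicate 1; and 11 without replicate 1 of both chambers. Partner genes higher in atrial cells numbered 12, with 27 under the replicate block, 24 with a library set term, 36 in replicates 3 to 5, 3 in replicates 1 and 2, and 5 to 13 with 1 library left out. The 5 arose without atrial replicate 3, 4 or 5, and without ventricular replicate 3, 4 or 5 there were 7. Partner genes higher in ventricular cells numbered 4, with 12 under the replicate block, 11 with a library set term, 27 and 1 in the library sets, 1 with equal totals, 7 by DESeq2 and 8 without replicate 1 of both chambers. With 1 library left out they numbered 1 to 7, the 7 without atrial replicate 1, and 1, 2 and 1 without atrial replicates 3, 4 and 5. The share of all genes called moved too, and the counts are to be read against it. In either direction it was 14.7% in the main test, 32.3% with the block and 31.8% with the library set term. It was 52.8% in replicates 3 to 5 and 5.14% in replicates 1 and 2. Toward the atrial side it was 8.12%, and 6.13% to 6.92% with 1 of replicates 3 to 5 left out. Toward the ventricular side it was 6.56%, with 4.34% for equal totals and 9.79% by DESeq2. The cause of these shifts was not tested. Of the 5 uncalled genes given in full, 2 reversed: Efna5 (-0.06) was 0.15 in replicates 3 to 5, 0.0044 with equal totals, 0.032 by edgeR, 0.042 by DESeq2, 0.074 without replicate 1 of both chambers and -0.43 to 0.33 with 1 library left out, and Sema4d (-0.20) was -0.48 to 0.13 with 1 library left out. Other uncalled members reversed too, among them Plxnd1 (0.64) and Plxnc1 (0.38) in replicates 1 and 2 and Sema3c (-0.29) and Ephb1 (-0.20) by edgeR. Beyond the 8 members named in the report with a value for the block, the block changed no member's call.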
